A study of Saccharomyces cerevisiae with 6 samples.

Results

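The 10 genes described here encode the enzymes that make isoleucine, valine and leucine in the budding yeast Saccharomyces cerevisiae, together with the transcription factor that tunes them: ILV1, ILV2, ILV6, ILV5, ILV3, BAT1, BAT2, LEU4, LEU1 and LEU3. They were chosen by name from the textbook pathway, with earlier results of these data known. Each was measured by 1 probe set that the array annotation pairs with that gene and no other, so all 10 of 10 were measured among 5449 S. cerevisiae genes. The measurements come from 6 Affymetrix arrays of total RNA from strain BY4742. Of these, 3 were from cultures given 80 µM clioquinol (CQ), a hydroxyquinoline drug able to chelate iron, copper and zinc, and 3 were from cultures given 1% of the solvent dimethyl sulfoxide (DMSO). Cells growing in mid-log phase on YPD, a rich medium, were moved into fresh YPD holding the additive and were collected after 5 h. The labels name the 3 samples of a group biological replicates and do not say how much DMSO accompanied CQ, so effects of solvent and drug cannot be told apart. BY4742 is a haploid laboratory strain of mating type alpha that lacks LEU2, LYS2 and URA3 and part of HIS3, and both groups share these deletions.

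Isoleucine and valine are built by one set of mitochondrial enzymes that work on parallel substrates. The valine precursor ketoisovalerate is also the starting point of leucine, whose synthesis branches off with alpha-isopropylmalate. That intermediate has a regulatory role as well: it turns the DNA-bound factor Leu3 from a repressor into an activator of pathway genes. A pair of the enzymes, the dihydroxyacid dehydratase Ilv3 in mitochondria and the isopropylmalate isomerase Leu1 in the cytosol, hold an iron-sulfur (Fe-S) cluster and need iron for their activity. Because LEU2, the step after LEU1, is deleted, these cells cannot complete leucine synthesis and take leucine from the medium.

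Most of the pathway was lower with CQ. Of the 10 genes 8 fell, LEU3 alone rose, and ILV1 did not pass the test (limma with Benjamini-Hochberg adjustment over all 5449 genes, adjusted p under 0.05). These 9 calls stand against a background in which 68.0% of all genes were called, 31.9% lower and 36.1% higher. The median log2 difference of the 10 genes, CQ minus DMSO, was -0.63, and over all genes it was 0.02. At least 2-fold decreases (a log2 difference of -1 or less, adjusted p under 0.05) occurred in 3 of the 10, ILV3, ILV2 and ILV5, where 7.51% of all genes fell that far. For 9 of the 10 genes no CQ array reached the range of the DMSO arrays, against 73.7% of all genes. For 8 of the 10 the groups were apart in this way with CQ lower, against 35.1% of all genes. The RNA came from whole cultures, so a lower level in every cell and fewer cells with the transcript cannot be told apart.

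**Figure D1:**
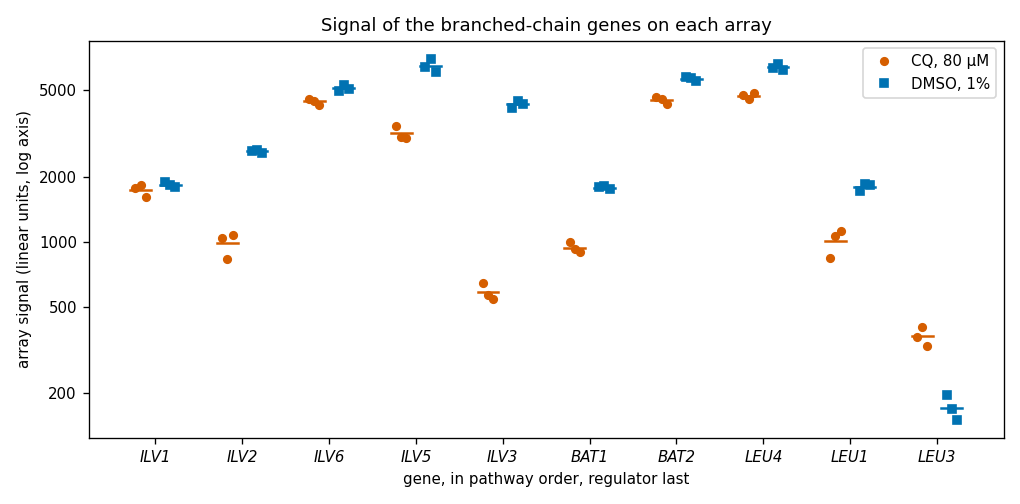
Signal of each of the 10 genes on each array, on a log axis, with CQ arrays as circles on the left of each gene and DMSO arrays as squares on the right; bars are means of 3 arrays. ILV3 shows the widest gap between groups, ILV1 overlaps, and LEU3 alone is higher with CQ.

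Several facts of the whole array set bear on these values. Medians over all genes were 976.9 to 1008 on the CQ arrays and 889.7 to 926.1 on the DMSO arrays. All 10 genes lay above background, the 95th percentile of fission yeast probe sets on the same array, on all 6 arrays. After centring of each array on its own median, the median difference of all genes became -0.11 and the calls over all genes were 1578 higher and 2211 lower, in place of 1969 higher and 1739 lower as deposited, so differences of about that size have no settled direction. The 3' to 5' index is a log2 ratio over 6 control genes that reflects RNA integrity and labelling. It was 1.30, 1.53 and 1.15 on the CQ arrays, against 0.96, 0.96 and 0.88 on the DMSO arrays. Every CQ array was thus above every DMSO array, so the index and CQ cannot be told apart. In a fit adjusted for this index all members kept their sign, and ILV6 no longer passed. The deleted genes LEU2, LYS2 and URA3 lay at or under background on all 6 arrays. HIS3, of which the strain lacks only a part, gave 732, 1119.6 and 790.0 with CQ, against 1703, 1562 and 1530.1 with DMSO, so its probe set does not check the deletion. Genes specific to alpha cells (MF(ALPHA)1, MF(ALPHA)2, STE3 and SAG1) gave 851 to 3019 with CQ and 1774 to 7313 with DMSO, and genes specific to a cells (MFA1, MFA2, STE2, BAR1 and AGA2) gave 46.8 to 253 with CQ and 60.6 to 103 with DMSO. All 4 alpha-cell genes fell (-1.28 to -0.63), and 4 of the 5 a-cell genes rose (0.37 for BAR1 to 1.31 for MFA1), while AGA2 did not pass (-0.23).

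Threonine deaminase, encoded by ILV1 (YER086W), commits threonine to isoleucine and is inhibited by that end product. Its signal was 1774, 1818 and 1604 on the CQ arrays, against 1885, 1818 and 1795 on the DMSO arrays. The groups overlapped, and the log2 difference of -0.08 ± 0.08 (SE of the moderated fit) did not pass (limma adjusted p = 0.373). With arrays centred on their median it was -0.22 and passed (adjusted p = 0.043), so no direction is assigned. ILV1 was the only enzyme gene of the 9 that did not pass. CHA1 (YCL064C), which encodes the catabolic deaminase of serine and threonine, gave 3038, 2839 and 2715 with CQ and 5434, 5887 and 5764 with DMSO, without overlap. It fell by 0.99 ± 0.08 on the log2 scale (adjusted p = 1.80e-05).

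Acetolactate synthase opens the parallel part of the pathway and is made of a catalytic subunit, Ilv2, and a regulatory subunit, Ilv6, that confers inhibition by valine. The catalytic subunit gene ILV2 (YMR108W) gave 1039, 827 and 1077 with CQ, against 2632, 2646 and 2557 with DMSO. All 3 CQ arrays lay far below the DMSO arrays, with CQ replicate 2 the lowest. The CQ mean was 37.6% of the DMSO mean, a log2 difference of -1.41 ± 0.11 (adjusted p = 1.51e-05), and 3.25% of all genes had a lower difference. It was -1.03 in the fit adjusted for the 3' to 5' index.

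The regulatory subunit gene ILV6 (YCL009C) changed little. Its signal was 4559.9, 4477 and 4299 with CQ and 4970.1, 5322 and 5072 with DMSO, close together but without overlap. The decrease of 0.20 on the log2 scale (SE 0.07, adjusted p = 0.0343) stood just inside the threshold. The call depended on the setting: among the alternatives that ended it were fits without CQ replicate 3 (-0.18), without DMSO replicate 1 (-0.22), 2 (-0.18) or 3 (-0.21), with quantile normalization (-0.13), adjusted for the index (-0.26) and with the trend over gene length removed (-0.10).

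Acetohydroxyacid reductoisomerase, the product of ILV5 (YLR355C), carries out the next step and also binds mitochondrial DNA. ILV5 gave 3439, 3044 and 3028 with CQ, against 6445, 7013 and 6076 with DMSO. The CQ arrays were all lower, at 48.7% of the DMSO mean. The log2 difference was -1.03 ± 0.09 (adjusted p = 2.79e-05).

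The largest difference of the 10 genes was in ILV3 (YJR016C), the gene of the mitochondrial Fe-S dehydratase that yields the keto acids of both valine and isoleucine. Its signal was 641, 569 and 541 with CQ, against 4152, 4472 and 4306 with DMSO. Every CQ array lay far below every DMSO array, and the spread within a group was small beside the gap, with 583 ± 51.3 with CQ and 4309.9 ± 160.3 with DMSO (SD, n = 3 each). The CQ mean was 13.5% of the DMSO mean, a 7.39-fold lower signal. The log2 difference of -2.85 ± 0.09 (adjusted p = 4.93e-07) was rank 8 from the lowest among 5449 genes, and it ran from -2.92 to -2.80 when any 1 array was left out. Across all alternatives it stayed between -2.99 and -2.76.

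**Figure D2:**
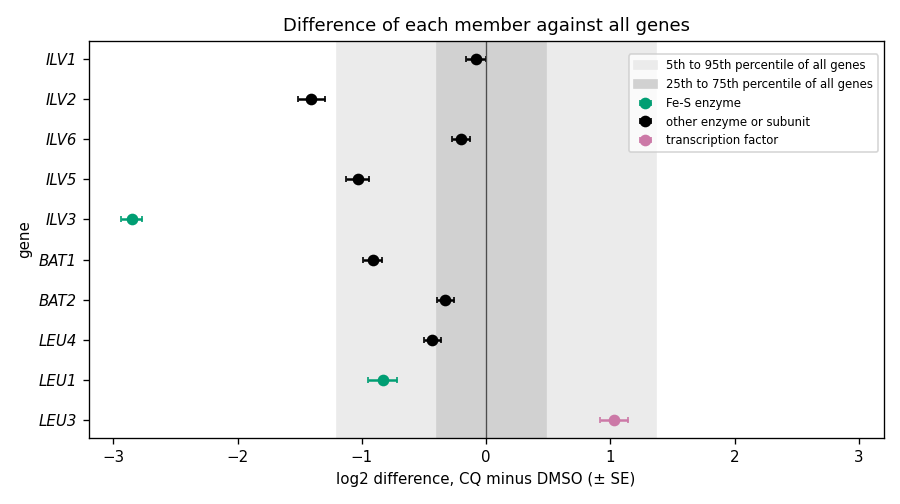
Log2 difference, CQ minus DMSO, of each gene with its standard error, in pathway order from top to bottom with the regulator LEU3 last; grey bands span the 25th to 75th and the 5th to 95th percentile of all 5449 genes. ILV3 and ILV2 lie below the 5th percentile of all genes (-1.20), ILV5, BAT1, LEU1 and LEU4 lie between the 5th and the 25th, and LEU3 lies above the 75th (0.48).

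The final transamination is shared by a mitochondrial enzyme, Bat1, and a cytosolic one, Bat2, encoded by paralogues. BAT1 (YHR208W) gave 997, 921 and 895 with CQ, against 1789, 1803 and 1744 with DMSO. BAT2 (YJR148W) gave 4659, 4569 and 4315 with CQ, against 5746, 5726 and 5532 with DMSO. Neither gene had overlapping groups, and the mitochondrial one had the larger relative difference. BAT1 fell by 0.91 ± 0.07 on the log2 scale (adjusted p = 2.11e-05), to 52.7% of its DMSO mean. BAT2 fell by 0.33 ± 0.07 (adjusted p = 0.00393), to 79.7%.

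The leucine branch starts with alpha-isopropylmalate synthase. Its major form is encoded by LEU4 (YNL104C), which leucine inhibits, and a lesser one by the paralogue LEU9 (YOR108W). LEU4 gave 4741, 4586 and 4879.5 with CQ, against 6350.2, 6599.5 and 6236 with DMSO. These values did not overlap, and the log2 difference was -0.43 ± 0.07 (adjusted p = 0.000875), which left 74.0% of the DMSO mean. LEU9 gave 335, 319 and 305 with CQ, against 553, 493 and 568 with DMSO. It fell by 0.72 ± 0.08 on the log2 scale (adjusted p = 0.000128).

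LEU1 (YGL009C), the gene of the cytosolic Fe-S isomerase whose activity is often used to follow cytosolic Fe-S protein assembly, also fell. Its signal was 836, 1065 and 1118 with CQ, against 1708, 1851 and 1823 with DMSO. The groups did not overlap, and CQ replicate 1 was the lowest array. The CQ mean was 56.1% of the DMSO mean and the log2 difference -0.83 ± 0.12 (adjusted p = 0.000342), or -0.71 without CQ replicate 1. The log2 difference of LEU1 was close to that of BAT1 (-0.91), from which it was less than 1 SE away. It lay far from that of ILV3 (-2.85), the other Fe-S enzyme gene of the pathway. Differences between these genes were tested only as the within-array ratios of 6 pairs. The 7 enzyme or subunit genes without an Fe-S centre had differences from -1.41 to -0.08, with a median of -0.43. The 13 measured genes for other Fe-S proteins, described below, had differences from -2.63 to 0.51, with a median of -0.80.

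LEU2, the deleted gene of the following step, gave 37.3, 24.4 and 39.0 with CQ and 58.6, 40.5 and 37.0 with DMSO, at or under background on every array. No level is assigned to it.

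The regulator gene LEU3 (YLR451W) was the exception in direction. It gave 362, 402 and 329 with CQ, against 195, 168 and 149 with DMSO. All CQ arrays were higher, at 2.14 times the DMSO mean, and LEU3 rose by 1.03 ± 0.11 on the log2 scale (adjusted p = 9.58e-05). The rise was 0.69 in the fit adjusted for the 3' to 5' index and 0.70 with the trend over gene length removed, and it passed in both.

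Genes listed here as Leu3 targets, apart from the deleted LEU2, were lower while the LEU3 transcript was higher. Of the members, ILV2, ILV5, BAT1, LEU4 and LEU1 are such targets, and 5 of these 5 fell. Their differences ran from -1.41 to -0.43 with a median of -0.91, where 31.9% of all genes fell. The fall was not particular to them. Of the enzyme or subunit genes not listed as targets, ILV3 (-2.85), BAT2 (-0.33) and ILV6 (-0.20) also fell, and ILV1 (-0.08) did not pass. Outside the 10 genes, OAC1 (YKL120W), a mitochondrial carrier of oxaloacetate that also exports alpha-isopropylmalate, gave 399, 409 and 396 with CQ, against 645, 653 and 621 with DMSO, and fell by 0.65 ± 0.07 on the log2 scale (adjusted p = 7.68e-05). GDH1 (YOR375C), the main glutamate dehydrogenase for ammonium assimilation, gave 2246, 1797 and 2225 with CQ, against 4864, 4442 and 3938 with DMSO, and fell by 1.08 ± 0.12 (adjusted p = 9.46e-05). The list of targets is not complete, so the falls above hold for the listed genes and not for Leu3 targets as a whole. BAP2, a permease gene that is not on it, rose by 1.58 ± 0.11 on the log2 scale. The activity of the Leu3 protein was not measured.

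Ratios of gene pairs within each array do not depend on how arrays are scaled by a constant factor, and they show where neighbouring steps or paralogues changed unequally. In the 6 pairs compared, the CQ and DMSO arrays did not overlap, and every pair had p = 0.1 by an exact permutation test (two-sided), which is the lowest p possible with 3 arrays against 3 (0.1 also after adjustment over the 6 pairs), so no pair can pass 0.05. Ratios are log2 values minus the mean of the DMSO arrays, and errors are standard errors over arrays.

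The ratio of ILV3 to ILV5, the Fe-S dehydratase against the step before it, was -1.80, -1.80 and -1.86 on the CQ arrays, against -0.04, -0.06 and 0.10 on the DMSO arrays, a difference of -1.82 ± 0.05. The 3 CQ arrays were almost alike. ILV3 thus had a 3.53-fold larger relative decrease than ILV5. The other Fe-S enzyme gene had a smaller offset from its neighbour: the ratio of LEU1 to LEU4 was -0.66, -0.26 and -0.28 with CQ, against -0.06, 0.00 and 0.06 with DMSO. That difference was -0.40 ± 0.13 and leaned on CQ replicate 1, without which it was -0.27.

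Subunits and paralogues also shifted against each other. ILV6 over ILV2, the regulatory against the catalytic subunit of acetolactate synthase, was 1.15, 1.45 and 1.01 with CQ, against -0.05, 0.04 and 0.02 with DMSO, a difference of 1.20 ± 0.13, or 0.78 when adjusted for the 3' to 5' index. BAT1 over BAT2 was -0.54, -0.63 and -0.59 with CQ, against -0.01, 0.00 and 0.01 with DMSO, a difference of -0.59 ± 0.03. LEU4 over LEU9 was 0.23, 0.25 and 0.40 with CQ, against -0.05, 0.17 and -0.11 with DMSO; the arrays nearly met, and the difference of 0.29 ± 0.10 became 0.44 with quantile normalization. ILV1 over CHA1, the biosynthetic against the catabolic deaminase, differed by 0.91 ± 0.07.

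**Figure D3:**
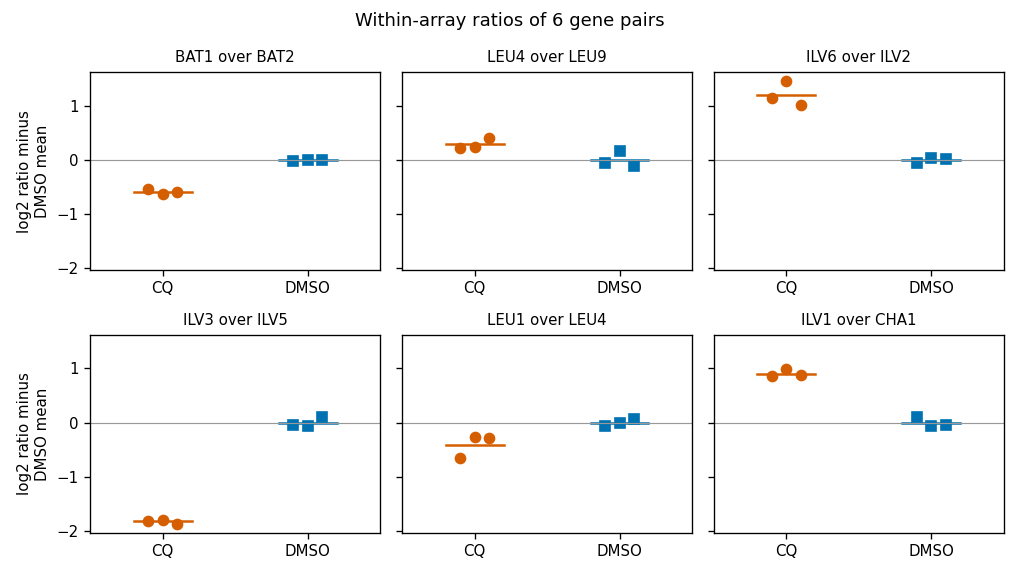
Within-array log2 ratios of the 6 gene pairs, each minus its DMSO mean, with CQ arrays on the left and DMSO arrays on the right of every panel; bars are means of 3 arrays. The ratio of ILV3 to ILV5 has the widest gap (-1.82), and that of LEU4 to LEU9 the narrowest (0.29).

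Gene lists that feed or drain the pathway are given beside the shares over all genes, 36.1% higher and 31.9% lower. Of 7 genes of threonine supply and breakdown 4 fell, 0 rose and 3 did not pass, with a median of -0.33. Besides CHA1, the threonine synthase gene THR4 fell by 0.79 ± 0.07 on the log2 scale, with 1653, 1499.8 and 1607 with CQ against 2775, 2724 and 2745 with DMSO. HOM2, which encodes aspartate semialdehyde dehydrogenase, fell by 0.51 ± 0.09. The remaining gene that fell, named after its value was seen, was the homoserine kinase gene THR1 (-0.33).

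Ketoisovalerate is also the start of pantothenate synthesis, and there 3 of 4 genes rose and 1 fell, with a median of 0.55 (36.1% of all genes rose and 31.9% fell). FMS1, a polyamine oxidase gene that supplies beta-alanine, rose by 0.72 ± 0.10, and PAN5, a ketopantoate reductase gene, rose by 0.56 ± 0.08. ECM31, for the enzyme that acts on ketoisovalerate itself, rose by 0.54; it was picked out once its value was known. PAN6, the pantothenate synthase gene, was the one that fell, by 0.81 ± 0.11, with 766, 961 and 755 with CQ against 1505, 1372 and 1475 with DMSO.

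Of 10 genes listed for the breakdown of branched-chain keto acids and for ester formation, 4 rose, 3 fell and 3 did not pass, with a median of 0.16. These shares are near those over all genes, 36.1% higher and 31.9% lower, and say nothing particular about the list. The decarboxylase gene ARO10 gave 437, 493 and 463 with CQ, against 1423, 1431 and 1634 with DMSO, and fell by 1.65 ± 0.09. PDC6, a minor pyruvate decarboxylase gene, gave 677, 547 and 721 with CQ, against 181, 160 and 176 with DMSO, and rose by 1.81 ± 0.11. The alcohol acetyltransferase gene ATF2 fell by 0.76 ± 0.13. Named after their values were seen, the pyruvate decarboxylase genes PDC1 (0.39) and PDC5 (0.64) and the ester synthase gene EEB1 (0.28) made up the rest of those that rose, and ATF1 (-0.24) the rest of those that fell.

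Of 11 genes for permeases of branched-chain amino acids and for the sensor that controls them, 4 rose, 4 fell and 3 did not pass, with a median of -0.16, again near the shares over all genes (36.1% higher, 31.9% lower). BAP2, a permease gene for leucine, isoleucine and valine, gave 5915, 4887 and 5711 with CQ, against 2022, 1630 and 1828 with DMSO, and rose by 1.58 ± 0.11. The broad permease genes AGP1 and GAP1 went the other way. AGP1 gave 1621, 1613 and 2006 with CQ, against 6952, 7122 and 6432 with DMSO, and fell by 1.96 ± 0.10, and GAP1 fell by 1.59 ± 0.18. The other genes that passed, named after their values were seen, belong to the sensor and its downstream factors: PTR3 (0.54), SSY1 (0.45) and STP2 (0.39) rose, and STP1 (-0.36) and SSY5 (-0.33) fell. Of 5 aminoacyl-tRNA synthetase genes for these amino acids, the cytosolic ILS1 (isoleucine) fell by 0.94 ± 0.08 and CDC60 (leucine) by 0.71 ± 0.07, the mitochondrial ISM1 rose by 0.33 ± 0.08, and 2, VAS1 (-0.10) and NAM2 (0.27), did not pass.

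Several pathway genes also belong to general amino acid control, in which the activator Gcn4 raises biosynthetic genes when amino acids are short. GCN4 (YEL009C), which is controlled largely at translation, gave 7732, 6772 and 6958 with CQ, against 9971, 10260 and 10015 with DMSO, and its transcript fell by 0.50 ± 0.08 on the log2 scale. Of 21 measured Gcn4 targets in other amino acid pathways (of 23 listed) 12 fell, 4 rose and 5 did not pass, with a median of -0.44, against 31.9% lower and 36.1% higher over all genes. The saccharopine dehydrogenase gene LYS9 fell by 1.44 ± 0.10, and ARO4, which opens aromatic amino acid synthesis, fell by 1.19 ± 0.14. ARG3, the ornithine carbamoyltransferase gene, rose by 1.97 ± 0.18, with 283, 471 and 306 with CQ against 75.6, 87.1 and 66.0 with DMSO. LYS20 (0.60), CPA1 (0.59) and HIS1 (0.49), named after their values were seen, also rose. Of 6 genes of general control signalling 4 fell and 2 rose, where 68.0% of all genes were called; the kinase gene GCN2 rose by 0.77 ± 0.12, and the genes of the initiation factor subunits GCN3 and GCD1 fell by 0.77 ± 0.13 and 0.72 ± 0.13. The others, named after their values were seen, were GCN20 (-0.40), which fell with GCN4, and GCN1 (0.40), which rose.

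Of 13 measured genes for other Fe-S proteins (of 14 listed) 9 fell, 2 rose and 2 did not pass, with a median of -0.80, against 31.9% lower and 36.1% higher over all genes. RLI1, whose product recycles ribosomes, gave 301, 212 and 277 with CQ, against 1632, 1747 and 1713 with DMSO, and fell by 2.63 ± 0.12, close to ILV3. LYS4, the gene of homoaconitase in lysine synthesis and a relative of LEU1 in the aconitase family, gave 297, 312 and 287 with CQ, against 1266, 1385 and 1371 with DMSO, and fell by 2.11 ± 0.08. BIO2, the biotin synthase gene, fell by 1.55 ± 0.09. Named after their values were seen, the DNA repair gene NTG2 (0.30) and the tRNA modification gene TYW1 (0.51) rose, and the sulfite reductase gene MET5 (0.03) did not pass. Aconitase itself, named after its value was seen, also did not pass: ACO1 gave 7454, 6894 and 8012 with CQ, against 7744, 8184 and 7613 with DMSO, a difference of -0.08 ± 0.08 (adjusted p = 0.437). Within the aconitase family the differences were thus -2.11 for LYS4, -0.83 for LEU1 and -0.08 for ACO1.

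**Figure D4:**
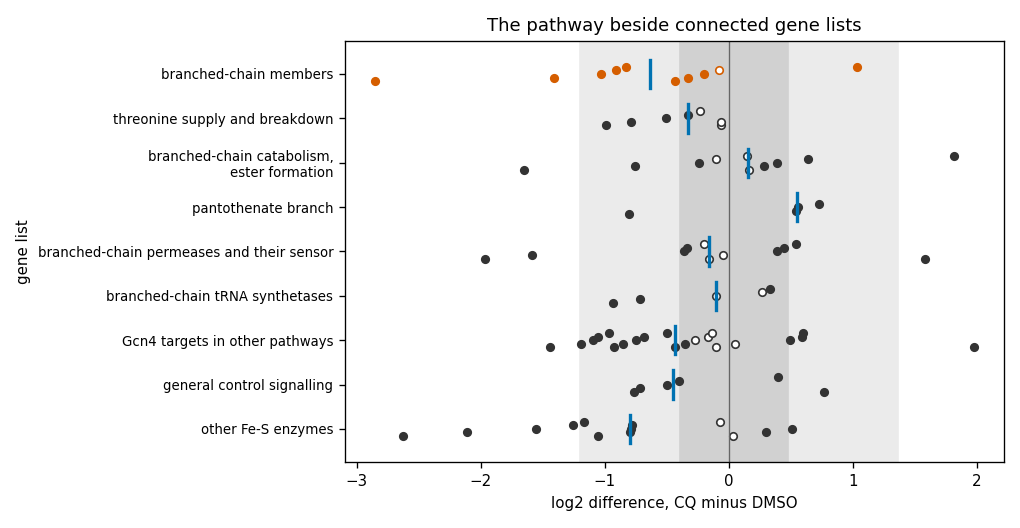
Log2 differences, CQ minus DMSO, of the 10 pathway genes (top row) and of 8 connected gene lists; filled points passed the test, open points did not, vertical bars are list medians, and grey bands span the 25th to 75th and 5th to 95th percentile of all genes. The pathway genes have a median of -0.63, the other Fe-S proteins -0.80, and the pantothenate branch 0.55.

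Likeness to the Fe-S enzyme genes was measured as the root-mean-square distance over the 6 arrays after each gene's DMSO mean was subtracted. A small distance therefore requires a similar log2 difference, and the likeness of the differences below follows from this choice. The 3 genes nearest to ILV3 were TDA4, of unknown function (distance 0.08), AGA1, the anchor subunit of a-agglutinin (0.10), and NOC2, a ribosome assembly factor (0.11), with log2 differences of -2.81, -2.77 and -2.90. The 3 nearest to LEU1 were UBP8, a histone deubiquitinase gene (0.07), AMF1 (0.08) and PNT1, for protein export in mitochondria (0.09), with differences of -0.79, -0.75 and -0.78. None of these is a gene of branched-chain amino acid synthesis.

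**Figure D5:**
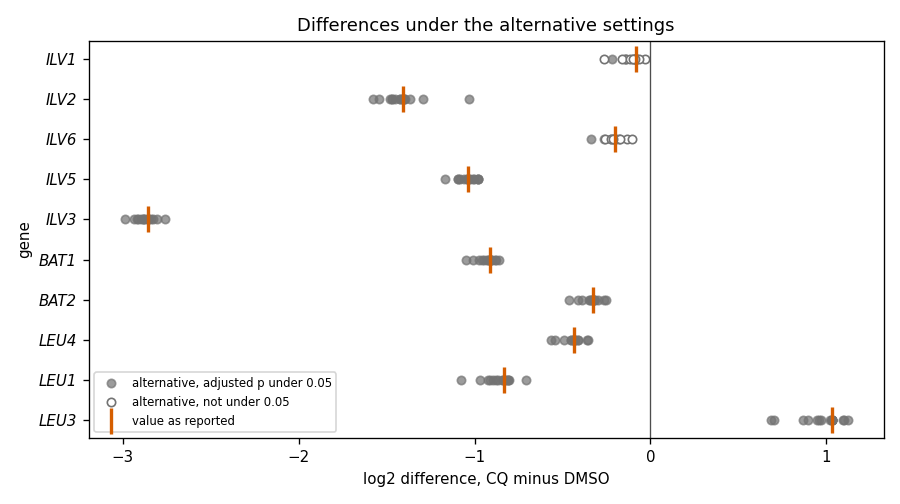
Log2 difference of each gene as reported (vertical bars) and under each alternative setting (circles; filled where the adjusted p was under 0.05, open where it was not). ILV3 spans -2.99 to -2.76 and LEU3 0.69 to 1.12, and open circles occur for ILV1 and ILV6 only.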

How the data were processed

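The authors' deposited table holds 1 linear intensity per probe set and array for 10928 probe sets on 6 arrays; the values are not negative. Per the labels' protocols, RNA came from hot phenol extraction and was turned into biotinylated cRNA following Affymetrix. For the summarising software and any scaling between arrays, nothing is given in the sources used here. GEO's platform annotation paired 5498 probe sets with 1 S. cerevisiae gene; symbols were updated by gene identifier from a RefSeq table of 6477 genes. For the 47 genes with several probe sets the one with the highest mean was used, which left 5449 genes. No coordinates are given, because the array annotation names no genome build.

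Differences in log2(intensity + 16) were tested two-sided by limma's moderated linear model (lmFit, eBayes; version 3.58.1, R 4.3.3). Adjusted p-values are Benjamini-Hochberg values over 5449 genes, and 0.05 was the threshold. A pseudocount understates changes of dim genes. The fit was also run on simulated arrays. Far fewer genes changed in these than were called here, so that run does not check the calls reported. Python 3.11.15 with matplotlib 3.10.9 made the plots. The number of arrays limits the precision, and differences are relative to the other transcripts of an array. The members and lists were chosen with earlier results of these data known.

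All 10 members were named, with LEU2, LEU9, OAC1, GDH1, CHA1 and GCN4. Of each other list the 3 genes with the largest absolute difference past the threshold were named, and for ILV3 and LEU1 the 3 genes nearest in pattern. Replicate numbers of the titles were not taken as pairs: deviations from the group means correlated at 0.05, 0.12 and 0.14 between same-numbered arrays, and the first of these is under 0.1. Alternatives were other normalizations, filters, probe set summaries, variance models, pseudocounts, the replicate number as a block, adjustment for the 3' to 5' index, removal of the trend over gene length, and leaving out each array.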

Additional observations from a re-analysis of the deposited data

How the results depend on the processing

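Under 19 alternatives ILV2, ILV5, ILV3, BAT1, BAT2, LEU4 and LEU1 stayed lower and past the threshold, and LEU3 stayed higher in the 18 that tested it. ILV6 passed in 11 of 19, and ILV1 in 1 of 19. The number of members called was 8 to 10. Over all genes 3229 to 3956 were called when 1 array was left out (3708 with all), and 2267 with the dimmest 40% of genes left out, where 3269 genes were tested. LEU2, under background, had a difference of 0.069 after adjustment for the 3' to 5' index, against -0.31 as reported, and passed in neither. With arrays centred on their median it was -0.44 and passed (limma adjusted p = 0.026), although the gene is deleted. With the replicate number as a block 3709 genes were called and ILV6 did not pass (-0.20, adjusted p = 0.064); it changed no other member's call. Every array correlated best with the array of its own number in the other group, a hint from the data and not from the design. The 6 pair ratios kept their direction throughout. Signals near the top of the scale may be compressed; the brightest member, ILV5 with DMSO, stood at 44.8% of the array maximum.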
